A study of Mus musculus with 4 samples.

Results

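The transporters that bring amino acids into fibroblasts, and the enzyme that makes glutamine inside them, were followed in wild type and SIN1 knock-out cells. The set holds 8 genes, measured by 11 of the 45037 non-control probe sets on the array: Slc7a5, Slc3a2, Slc7a11, Slc7a1, Slc1a5, Slc1a4, Slc38a2 and Glul. Members are given by probe set number, a rule that uses no measured value, though the set was proposed with earlier results of these data known, and the pairing of number and gene is that of the rule by which they were chosen, since neither the deposited table nor the gene table used here names the probe sets. Slc7a1, Slc1a4 and Glul have 2 probe sets each, which read the same gene and are no replicates of each other, and the other genes 1 each.

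SIN1, encoded by Mapkap1, is a subunit of mTOR complex 2, a kinase complex best known for phosphorylating AKT. The cells were C57BL/6 fibroblasts, named murine epithelial fibroblasts and MEFs in the labels, and carried either the wild type gene or an ablated SIN1 gene (SIN1 KO). Both genotypes were grown in DMEM with no other treatment named, and each was measured on 2 arrays. "Altered metabolism" is the note the labels attach to SIN1 KO. Whether the 2 arrays per genotype stand for independent cultures, lines or embryos is not stated, so the p-values reflect no more than how these arrays scatter, and that scatter may be technical.

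Amino acids cross the plasma membrane through carriers of several families. SLC7A5 (LAT1) and SLC7A11 (xCT) are light chains that reach the cell surface bound to the same heavy chain, SLC3A2 (CD98 or 4F2hc). LAT1 takes up leucine and other large neutral amino acids in exchange for intracellular ones such as glutamine, and xCT takes up cystine in exchange for glutamate. SLC7A1 (CAT1) carries arginine and lysine, SLC1A5 (ASCT2) and SLC1A4 (ASCT1) exchange small neutral amino acids, glutamine among the substrates of the former, and SLC38A2 (SNAT2) takes up neutral amino acids with sodium. Glul encodes glutamine synthetase, which joins glutamate and ammonia. Several of these transporter genes are known targets of ATF4, the transcription factor induced when amino acids run short, which binds composite C/EBP-ATF elements.

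Promoter sequence was available for 6 of the 8 genes, in 7 windows of 300 bases, each running from 250 bases before an annotated transcription start to 50 bases after it (RefSeq, mouse GRCm38.p6). Slc7a5 and Slc1a5 had no window. The core letters TGATGCAA of the composite element were searched on both strands, because known ATF4 targets are among these genes. Matches lay in the windows of Slc7a11 and Slc1a4, which are printed 5′ to 3′ on the strand of the gene with the matched letters in capitals; TTGCATCA is the same word on the other strand.
Slc7a11, chr3:50443638-50443694, minus strand: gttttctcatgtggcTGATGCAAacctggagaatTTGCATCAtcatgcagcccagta
Slc1a4, chr11:20332701-20332726, minus strand: cctcctgcgTTGCATCAtctccagcc
The Slc7a11 stretch covers the bases from 81 to 25 before the annotated start and holds 2 matches, in opposite orientation. The single Slc1a4 match straddles the annotated start, with its last 4 bases in the transcript. Over all 32851 windows of this length, 294 (0.895%) held at least 1 match, and 2 windows, that of Slc7a11 among them, held 2. The antioxidant response element core TGACNNNGC had no match in the Slc7a11 window. It matched once in a Slc7a1 window and once in that of Slc38a2, against 12.4% of all windows. The E-box CACGTG matched none of the 7 windows and 7.15% of all windows. These are matches of letters, and binding was not measured.

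The values are log2 expression values made by the authors with RMA, so a difference of 1 unit is a 2-fold change. The array medians lay between 4.23 and 4.32. A background level was taken on each array as the highest of 27 probe sets for Bacillus subtilis genes, which ran from 3.75 to 4.27 over the arrays and came from the same Phe control each time. Of the 11 probe sets, 10 were above it on all 4 arrays, and the exception was Slc7a11 on SIN1 KO 2. All 11 had a mean at least as bright as the median of all tested probe sets. The level of Mapkap1 and the markers of fibroblasts and other cell types were not analysed here, because no source used here pairs their probe sets with genes, so neither the genotype nor the cell type in the labels was checked. In bulk RNA, fewer expressing cells and less RNA per cell cannot be told apart.

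**Figure D1:**
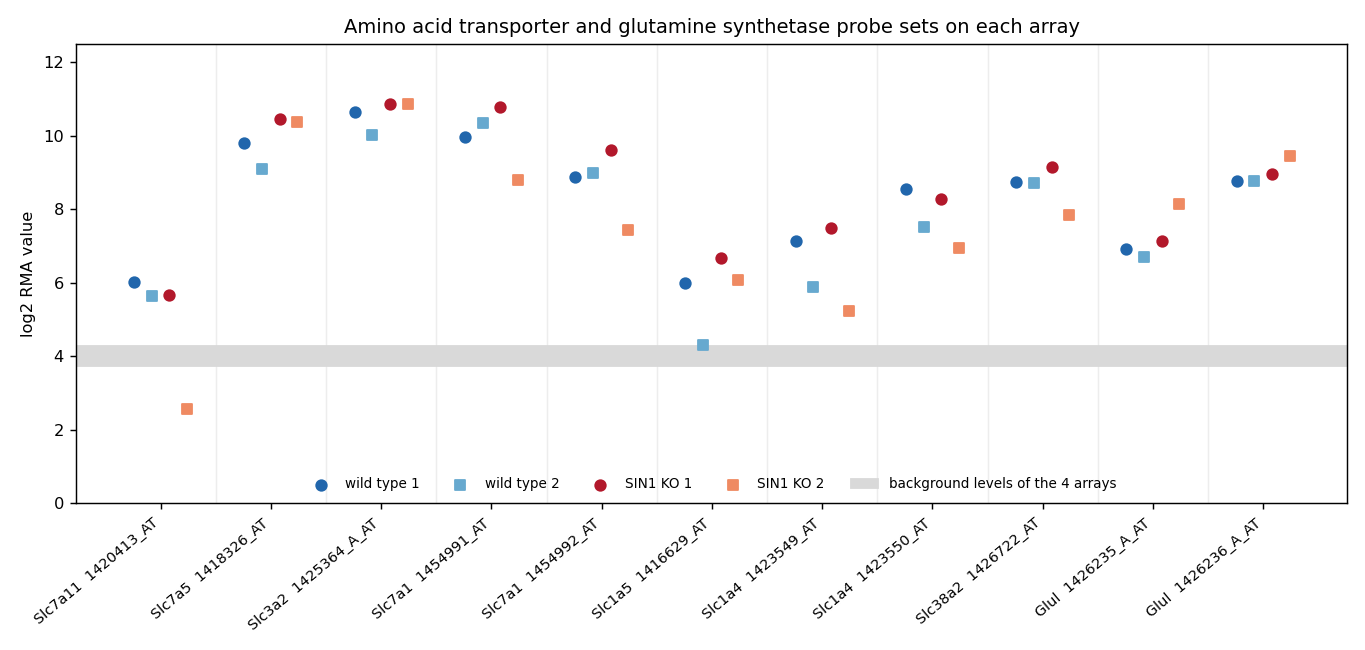
The plot shows the log2 RMA value (vertical axis) of each of the 11 probe sets on each of the 4 arrays, with 1 point per array and a grey band from the lowest to the highest background level of the arrays. Both SIN1 KO points lie above both wild type points for Slc7a5, Slc3a2, Slc1a5 and both Glul probe sets, and SIN1 KO 2 is the lowest point for the other 6.

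The 8 genes fell into a set of 4 whose lower SIN1 KO value exceeded the higher wild type value, and a set of 4 in which the genotypes overlapped. The first held both chains of the LAT1 exchanger (Slc7a5 and Slc3a2), the glutamine carrier Slc1a5, and Glul. The second held Slc7a11, Slc7a1, Slc1a4 and Slc38a2, each lowest on SIN1 KO 2. None of the 11 passed limma's test after Benjamini-Hochberg adjustment over all 45037 probe sets, with adjusted p from 0.82 to 0.978. In the same test 0 probe sets of the whole table passed in either direction (0% higher and 0% lower), and the lowest adjusted p of any was 0.128. At an unadjusted threshold of 0.05, limma called 1350 probe sets higher (3%) and 1159 lower (2.57%), and 1 member, Slc7a5, was among the former. Fits with 1 array left out leave 1 array in a genotype, so their counts are not given. They cannot show whether the member count rests on single arrays. No member passed the unadjusted threshold when only the 22519 probe sets at least as bright as the median were fitted. That fit called 705 probe sets higher and 619 lower. An exact permutation test of 2 against 2 arrays cannot give a two-sided p below 0.333, so none was run.

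Groups that did not overlap, with SIN1 KO higher, were found for 5 of the 11 probe sets. The share was 20.4% of all tested probe sets and 20% of those at least as bright as the median. By gene, with the probe sets of a gene averaged, it was 4 of the 8, and no share over genes was computed. The opposite order was found for 0 of the 11, against 14.9% of all and 17.3% of the brighter ones. The median difference of the 11 was -0.15, beside 0.04 over all probe sets. The median size of the difference was 0.44, beside 0.31 over all probe sets and 0.46 over those at least as bright as the median. The typical size was thus near that of probe sets at least as bright as the median, which were not matched to the members in level. The median standard error was 0.615 for the 11 and 0.395 for those probe sets.

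Slc7a5, which encodes LAT1 itself, measured 9.80 on wild type 1, 9.09 on wild type 2, 10.45 on SIN1 KO 1 and 10.37 on SIN1 KO 2. The SIN1 KO arrays lay 0.07 apart and cleared the higher wild type array by 0.57. The difference was 0.97 (SE 0.34, 95% interval 0.05 to 1.89), a 1.95-fold higher mean in SIN1 KO, with an unadjusted p of 0.0429 and an adjusted p of 0.82 in limma's fit. It kept its sign when any 1 array was left out, from 0.61 without wild type 2 to 1.32 without wild type 1.

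Slc3a2, the heavy chain that LAT1 and xCT share, measured 10.66 and 10.01 on the wild type arrays and 10.87 and 10.87 on the SIN1 KO arrays. Its SIN1 KO values were almost equal and lay 0.21 above the nearer wild type array. The difference was 0.53 (SE 0.33, 95% interval -0.34 to 1.41, adjusted p 0.82 in limma's fit), or 1.45-fold. Both chains of LAT1 therefore had the same order of arrays, with SIN1 KO 1 highest and wild type 2 lowest, as did Slc1a5. The share of all probe sets with that order was not counted. Wild type 2 was 0.71 below wild type 1 for Slc7a5 and 0.64 below it for Slc3a2, and without wild type 2 the Slc3a2 difference was 0.21.

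Slc1a5, the glutamine carrier ASCT2, had the largest positive difference of the 11 and also the widest wild type spread. Wild type 1 read 6.00, wild type 2 read 4.30, SIN1 KO 1 read 6.69 and SIN1 KO 2 read 6.09. Wild type 2 stood only 0.39 above its array's background, and SIN1 KO 2 lay 0.09 above wild type 1. The mean was 5.15 ± 1.21 for wild type against 6.39 ± 0.43 for SIN1 KO (SD, n = 2 each), a difference of 1.24 (SE 0.66, 95% interval -0.52 to 3.0, adjusted p 0.82 in limma's fit). The size rested on wild type 2: the difference was 0.39 without that array and 2.09 without wild type 1.

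Glul, glutamine synthetase, was the only gene of the 8 with its highest value on SIN1 KO 2. Probe set 1426235_A_AT gave wild type values of 6.91 and 6.70, with 7.14 on SIN1 KO 1 and 8.13 on SIN1 KO 2. Probe set 1426236_A_AT measured 8.77 and 8.78 in wild type, 8.98 on SIN1 KO 1 and 9.46 on SIN1 KO 2. Both had the wild type arrays close together, SIN1 KO 1 just above them and SIN1 KO 2 further up. The differences were 0.83 (SE 0.42) and 0.44 (SE 0.29), each with an adjusted p of 0.82 in limma's fit. Averaged over both probe sets, Glul was 0.64 higher in SIN1 KO (SE 0.35, 95% interval -0.30 to 1.57), or 1.01 without SIN1 KO 1 and 0.27 without SIN1 KO 2.

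Slc7a11, the light chain of the cystine exchanger, measured 6.02 on wild type 1, 5.65 on wild type 2, 5.67 on SIN1 KO 1 and 2.56 on SIN1 KO 2. The first 3 of these values lay within 0.36, and SIN1 KO 2 was 3.10 below SIN1 KO 1 and 1.71 below its array's background. The difference of the means was -1.72 (SE 1.08, 95% interval -4.63 to 1.19, adjusted p 0.82 in limma's fit). It rested on 1 array: without SIN1 KO 2 it was -0.17, and without SIN1 KO 1 it was -3.27. With the value of SIN1 KO 2 raised to the background level, the difference was -0.87, smaller in size than those of Slc1a5 and Slc7a5. That level, 4.27, came from 1 control. The next highest control on SIN1 KO 2 read 3.64, and the difference was not computed with it. The heavy chain partner of Slc7a11, Slc3a2, was not low on SIN1 KO 2.

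Slc7a1, the arginine and lysine carrier CAT1, gave the same picture with both probe sets. Probe set 1454991_AT measured 9.97 and 10.36 in wild type, 10.77 on SIN1 KO 1 and 8.80 on SIN1 KO 2. Probe set 1454992_AT measured 8.87 and 8.98 in wild type, 9.62 on SIN1 KO 1 and 7.44 on SIN1 KO 2. The SIN1 KO arrays enclosed both wild type arrays and stood 1.97 and 2.18 apart, so the differences of the means, -0.38 (SE 0.72) and -0.40 (SE 0.78), describe neither array. Without SIN1 KO 2 the gene's mean difference was 0.65, and without SIN1 KO 1 it was -1.43.

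Slc1a4, the neutral amino acid exchanger ASCT1, also had 2 probe sets. Probe set 1423549_AT gave 7.14 on wild type 1, 5.89 on wild type 2, 7.48 on SIN1 KO 1 and 5.24 on SIN1 KO 2. For 1423550_AT the values, array by array, were 8.55, 7.51, 8.27 and 6.96. In each genotype the number 2 array was the lower one, by 1.03 to 2.25, and the probe sets differed in whether SIN1 KO 1 lay above wild type 1. The gene's mean difference was -0.28 (SE 0.75, 95% interval -2.31 to 1.74, adjusted p 0.944 in limma's fit), and it was 0.61 without SIN1 KO 2, 0.29 without wild type 1 and -1.17 without SIN1 KO 1. It was 0.036 when arrays were scaled to their hybridisation controls, which moved the median of all probe sets from 0.04 to 0.36.

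Slc38a2, the sodium-coupled carrier SNAT2, measured 8.75 and 8.71 in wild type, 9.15 on SIN1 KO 1 and 7.84 on SIN1 KO 2. The wild type arrays differed by 0.03, and the SIN1 KO arrays lay 0.42 above and 0.89 below their mean. The difference was -0.23 (SE 0.50, 95% interval -1.59 to 1.12, adjusted p 0.929 in limma's fit). It was 0.42 with SIN1 KO 2 left out and -0.89 with SIN1 KO 1 left out. Scaling to the hybridisation controls gave 0.087.

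**Figure D2:**
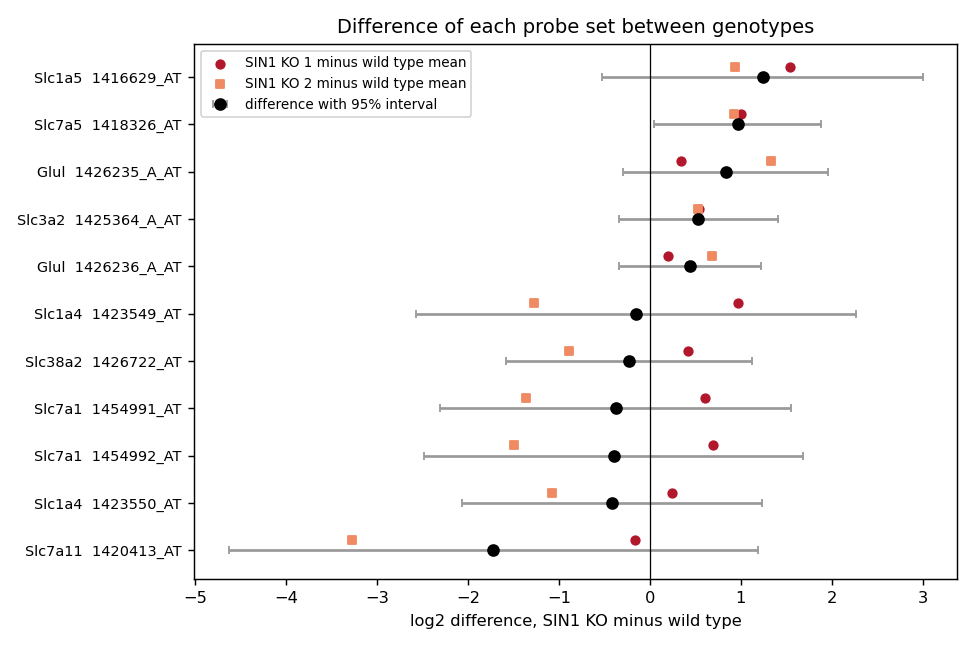
The plot shows the log2 difference between SIN1 KO and wild type (horizontal axis) for each probe set, with black points for the difference of the means, bars for its 95% interval from limma's fit, and coloured points for each SIN1 KO array against the wild type mean. The interval excludes 0 for Slc7a5 alone, before any adjustment for the number of probe sets, and the coloured points lie on opposite sides of 0 for Slc7a1, Slc1a4 and Slc38a2.

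The gap between the SIN1 KO arrays was wide for most members. The median size of the gap between SIN1 KO 1 and SIN1 KO 2 was 1.31 over the 11, beside 0.40 over all tested probe sets and 0.56 over those at least as bright as the median. The gap between the wild type arrays was 0.39 over the 11, beside 0.38 over all and 0.56 over those at least as bright as the median. SIN1 KO 2 was at least 1 unit below SIN1 KO 1 for 6 of the 11, against 8.59% of all probe sets and 14.9% of those at least as bright as the median. No member was at least 1 unit higher on SIN1 KO 2, against 7.65% of those at that level. SIN1 KO 2 was the lowest array for 6 of the 11 (26.1% of all, 36.9% at least as bright as the median), and wild type 2 for 4 of the 11 (37.6% of all). These patterns were picked after the values were seen and were given no test.

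**Figure D3:**
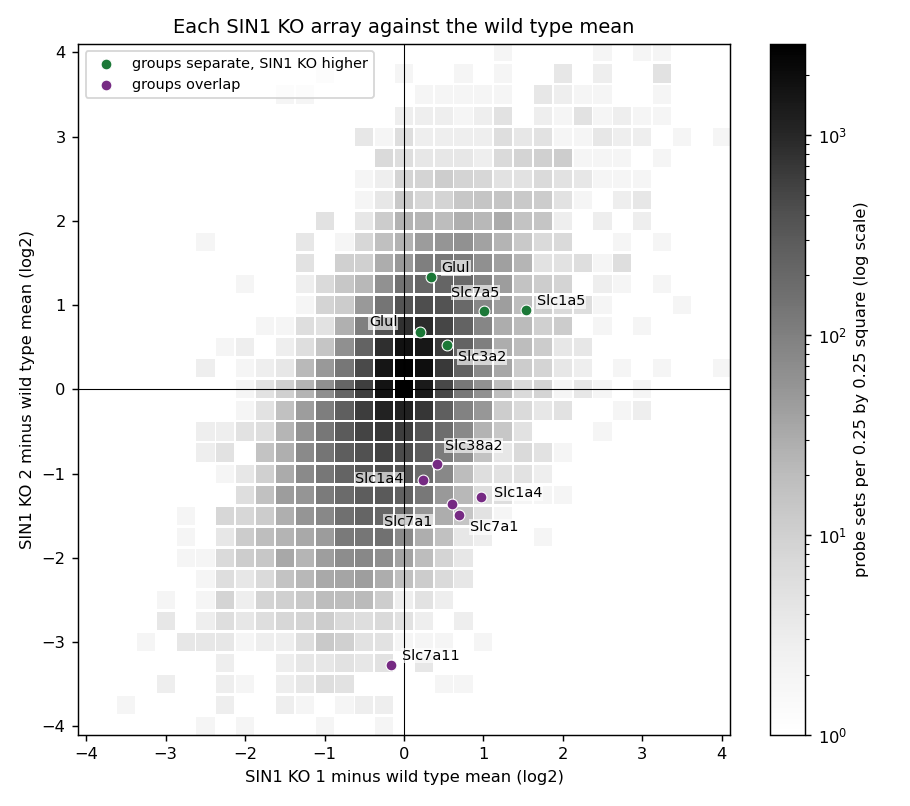
The plot sets each SIN1 KO array against the shared wild type mean, on log2 scales, with grey squares for the number of tested probe sets in each 0.25 by 0.25 square and coloured points for the 11 members; 191 probe sets fall outside the axes. Slc7a5, Slc3a2, Slc1a5 and Glul lie where both SIN1 KO arrays are above wild type, the probe sets of Slc7a1, Slc1a4 and Slc38a2 lie where SIN1 KO 1 is above and SIN1 KO 2 below, and Slc7a11 lies low on SIN1 KO 2 alone.

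On SIN1 KO 1 alone, 10 of the 11 probe sets were above the wild type mean, Slc7a11 being the exception, whereas on SIN1 KO 2 alone 5 of the 11 were. By gene these were 7 and 4 of the 8. The share of all probe sets above that mean was not counted for each array. Over all tested probe sets, the median of SIN1 KO 1 minus the wild type mean was -0.011, and that of SIN1 KO 2 was 0.085. The 5 probe sets of Slc7a1, Slc1a4 and Slc38a2 were above the wild type mean on SIN1 KO 1 and below it on SIN1 KO 2. That order was found for 13.3% of all tested probe sets and 16.2% of those at least as bright as the median. For 4 of them SIN1 KO 1 was the highest and SIN1 KO 2 the lowest of all arrays, against 4.75% of all and 5.7% of the brighter ones.

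The genes whose promoter windows held TGATGCAA, Slc7a11 and Slc1a4, were both lowest on SIN1 KO 2, and so were Slc7a1 and Slc38a2, whose windows held no match. Slc3a2 and Glul, also without a match, were not low there. Other forms of the element and sequence outside the windows were not searched, so a window without a match does not show that a gene lacks the element. Whether the element bears on these levels was not tested.

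The order of arrays at Slc7a11 was also sought in the rest of the table. Among 22508 other probe sets at least as bright as the median, the most alike by Euclidean distance of centred values over the 4 arrays were 1435650_AT (distance 0.336) and 1460062_AT (distance 0.413). In the order wild type 1, wild type 2, SIN1 KO 1 and SIN1 KO 2, the first gave 8.28, 7.78, 7.55 and 4.88, and the second 6.30, 6.26, 5.99 and 3.35. The SIN1 KO 2 value of the second, like that of Slc7a11, lay below the background of that array, 4.27. With 4 arrays such likeness is a description, and neither probe set is named here.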

How the data were processed

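RNA of 2 wild type and 2 SIN1 KO samples was labelled with biotin and put on 4 arrays. The deposited log2 values were made by the authors with RMA, per the submitters' processing notes. The RMA version was not given in the sources used here. The log2 scale was read from the range, 0.80 to 14.17. No further normalization was applied. After 64 control probe sets were left out, the genotypes were compared over 45037 probe sets in R 4.3.3 by limma 3.58.1 (lmFit, eBayes, 2 residual and 2.38 prior degrees of freedom, Benjamini-Hochberg, threshold 0.05). The code of the fit was checked on simulated arrays with independent noise and variances shuffled over the probe sets. That check does not cover scatter shared between probe sets or tied to level. The number of arrays limits the precision: standard errors of the members ran from 0.29 to 1.08. For gene values, member probe sets were averaged before the fit. Members and lists were chosen with earlier results of these data known. All members are named; the alike probe sets are the nearest 2 to the member whose deposited values differed most, Slc7a11, a rank that is lost when its value below background is raised to background. Lists of other transporters, glutamine enzymes, mTOR complex 2 subunits and cell type markers were not used here, as their probe sets could not be named. Python 3.11.15 and matplotlib 3.10.9 drew the figures.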

Additional observations from a re-analysis of the deposited data

How the results depend on the processing

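No member passed the adjusted threshold under median centring, cyclic loess, scaling to the hybridisation controls, trended or robust priors, the filter at the median level, the replicate block or any left-out array (0 under each), and 1 member, Slc7a5, passed without adjustment. That last count was 4, all higher, after scaling to the hybridisation controls. The same setting called 5381 of all 45037 probe sets higher and 370 lower without adjustment. The members' count was 0 under the filter and under the block. Over all probe sets the count was 0 under the same settings, leave-one-out fits included (0 to 0), except for 5 under the filter at the median level, none of them a member; 2509 passed without adjustment. With fewer residual degrees of freedom the block and the left-out arrays tested little, and where 1 array was left of a genotype its spread was taken from the other genotype. The replicate block gave 663 higher and 630 lower without adjustment. The numbers are not stated to mark a shared culture or day, so they were not taken to pair the samples. Deviations of same-numbered arrays correlated at -0.415 across probe sets, a value that cannot settle whether samples were paired. The crossed pairing as a block, added after the data were seen, gave 2899 and 3473 without adjustment and 0 with it. Scaling to the hybridisation controls moved the median of all probe sets from 0.04 to 0.36, and with it turned Slc1a4 1423549_AT (0.17), the Slc1a4 mean (0.036) and Slc38a2 (0.087) positive, still below that shift. Slc7a5, Slc3a2, Slc1a5, Glul and Slc7a11 kept their direction under every setting listed. Leaving out 1 array gave -1.36 to 0.61 for Slc7a1 1454991_AT, -1.49 to 0.69 for 1454992_AT and -1.43 to 0.65 for their mean, -1.28 to 0.97 for Slc1a4 1423549_AT, -1.07 to 0.24 for 1423550_AT and -1.17 to 0.61 for their mean, and -0.89 to 0.42 for Slc38a2. Raising values to background, added later, changed Slc7a11 alone.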
